A study of Homo sapiens with 12 samples.

Results

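The subunit genes that set apart the BRD9-containing form of the human SWI/SNF chromatin remodeller, together with the SS18 and BCL7 paralogues, comprised 8 genes: BRD9, BICRA, BICRAL, SS18, SS18L1, BCL7A, BCL7B and BCL7C. They were chosen by name and matched by gene identifier, which found all 8 among the 57820 gene identifiers of the count tables. Each had at least 19 counts in each of the 12 libraries, and all 8 passed the filter on low counts, as did 15750 genes in all. RNA sequencing was carried out in G401, an established human malignant rhabdoid tumour line, and the genotype given for all 12 libraries is SMARCB1(-/-). Doxycycline switched on GFP in the control cells and SMARCB1 in the others, and either kind then spent 24 hours with dBRD9-A, a degrader compound that removes the BRD9 protein, or with its solvent DMSO. The 4 groups, of 3 replicates each, were thus GFP cells and SMARCB1 cells, in DMSO or with dBRD9-A, and all groups shared the doxycycline and the loss of the chromosomal SMARCB1 gene. The labels do not give the dose of either drug, the length of the induction, the promoter of the constructs, whether the cells were 1 clone, or whether the replicates were separate cultures, so p-values measure the spread between these libraries, which may be technical.

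SWI/SNF complexes use ATP to move nucleosomes and occur as canonical BAF, PBAF and a non-canonical form that contains BRD9. BRD9 carries a bromodomain, a module that binds acetylated lysine, and joins BICRA or its paralogue BICRAL in the non-canonical form, which has no SMARCB1, whereas the SS18 and BCL7 proteins also occur in canonical BAF. Rhabdoid tumours arise by loss of SMARCB1, and the non-canonical form, which does not need that subunit, is known as a dependency of such cells.

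Between 34.97 and 58.54 megacounts (1e6 counts) per library were assigned to genes. SMARCB1 had 0 to 2 counts in each of the 6 GFP libraries and 53033 to 110893 counts in each of the 6 SMARCB1 libraries, which fits the labels. VIM, KRT8 and KRT18, which mark rhabdoid cells, were at 1256 CPM or more in all 12 libraries, whereas the blood cell genes PTPRC and CD3E had 0 counts in all 12. CDH5, an endothelial gene, had 0 counts in the GFP libraries and 3 to 10 counts in the SMARCB1 libraries, and PECAM1 was not analysed here. Levels are in CPM, a gene's counts per 1e6 counts of a library size that edgeR's TMM method has scaled. Synthetic ERCC spike-in RNAs made up 0.963% to 1.06% of the counts in GFP cells with dBRD9-A and 1.08% to 1.302% in the other 3 groups, and how they were added is not given in the sources used here. Under scaling to the spike-ins, the log2 fold change of the median gene was 0.17 for SMARCB1 in DMSO, -0.32 for SMARCB1 in dBRD9-A, 0.36 for dBRD9-A in GFP cells and -0.14 for dBRD9-A in SMARCB1 cells.

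Induction of SMARCB1 in DMSO was accompanied by higher mRNA of BRD9, SS18, BCL7B and BCL7C under both scalings, and by lower SS18L1 and BCL7A on TMM scaling, of which BCL7A turned to 0.01 with spike-ins. On TMM scaling, addition of dBRD9-A raised BICRAL and BCL7B in GFP cells, and BICRAL in SMARCB1 cells. The call in SMARCB1 cells was lost with spike-ins. A gene was counted as changed where the Benjamini-Hochberg adjusted p of edgeR's quasi-likelihood test, over all 15750 genes, was under 0.05. SMARCB1 in DMSO changed 6 of the 8 genes, 4 higher and 2 lower, where 65.0% of all genes tested changed, 33.5% higher and 31.6% lower. With spike-ins it changed 4 of 8, all higher, where 6831 of all 15750 genes were higher and 2581 lower. SMARCB1 in the presence of dBRD9-A changed 8 of 8, 5 higher and 3 lower, against 63.3% of all genes, 33.0% higher and 30.4% lower. Spike-in scaling gave 4 of 8, all lower, where 9046 of all 15750 genes were lower and 2129 higher. BCL7C, higher on TMM scaling, was among those 4. Against these shares of all genes, nothing particular to the 8 genes is read from these counts. For dBRD9-A, 2 of 8 rose and 0 fell in GFP cells on TMM scaling against 15.9% of all genes, 7.43% higher and 8.47% lower. Spike-in scaling gave 7 of 8 there, all higher, where 11083 of all 15750 genes were higher and 227 lower. In SMARCB1 cells spike-in scaling gave 0 of 8, where 873 of all genes were called. On TMM scaling 1 of 8 rose and 0 fell in SMARCB1 cells against 1.93% of all genes, 0.679% higher and 1.25% lower. That last background, 304 genes with all 12 libraries, varied in both directions with single libraries. It was 174 without replicate 2 and 169 without replicate 3 of SMARCB1 cells in DMSO. Among SMARCB1 cells with dBRD9-A, it was 196 without replicate 3 but 422 without replicate 2. The 8 genes had a median log2 fold change, set beside that of all genes tested, of 0.28 and -0.005 for SMARCB1 in DMSO, and 0.16 and 0.01 for SMARCB1 in dBRD9-A. For dBRD9-A it was 0.05 for the 8 genes in GFP cells and 0.01 in SMARCB1 cells, where the medians of all genes lay within 0.01 of 0.

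**Figure D1:**
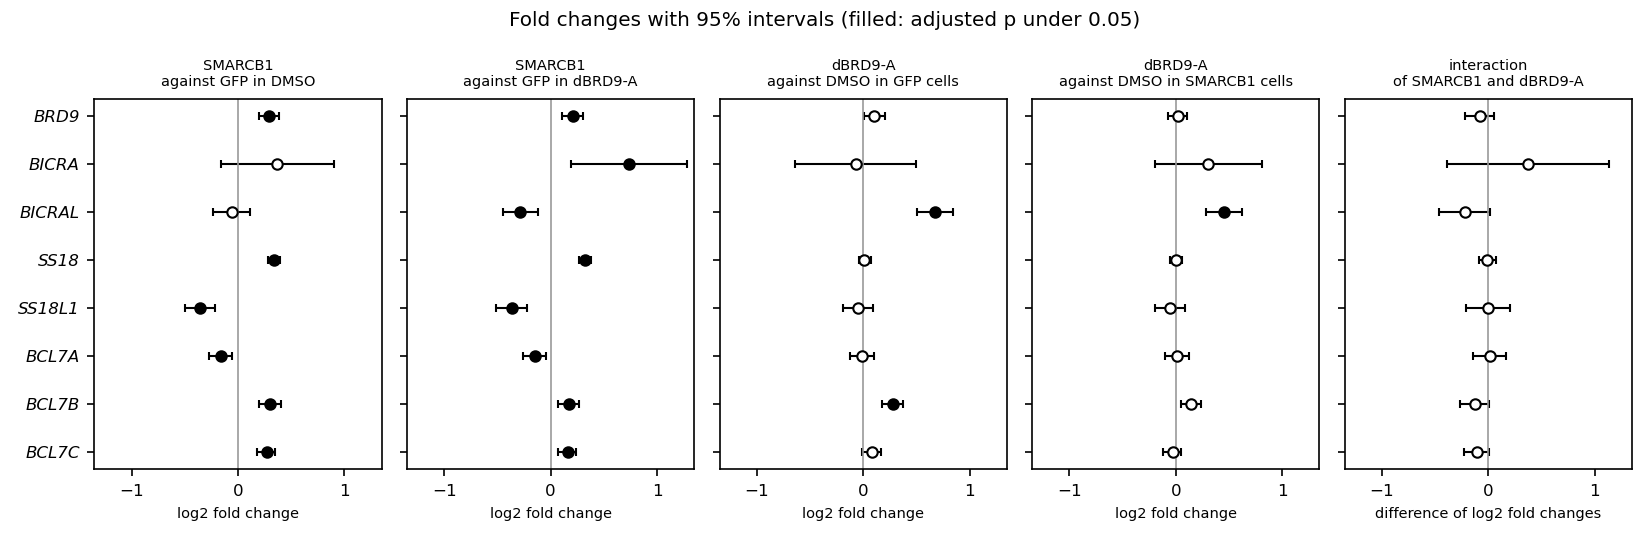
Log2 fold change (x axis) of each of the 8 genes (y axis) in the 4 comparisons, and the difference between the dBRD9-A effects in the last panel. Bars are 95% intervals and filled points have an adjusted p under 0.05; BICRAL reached 0.67 with dBRD9-A in GFP cells and BICRA had the widest intervals.

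Levels were compared between genes per kilobase of exon, taken from the coding transcripts of GENCODE 29. In GFP cells in DMSO, SS18 led with 29.1 ± 0.381 CPM per kilobase (SD, n = 3), followed by BRD9 at 16.3 ± 0.512. BCL7C at 10.8, 11.2 and 11.1 and BCL7B at 10.6, 10.9 and 11.5 CPM per kilobase came next, and their libraries overlapped, so the pair has no order there. BCL7A at 2.91 ± 0.0679 lay just above SS18L1 at 2.56 ± 0.0856, with no overlap. The pair that only the BRD9 complex uses was lowest, BICRAL at 0.891 ± 0.0287 and BICRA at 0.101 ± 0.0382 CPM per kilobase. Among 12439 coding genes tested, these levels put SS18 at percentile 83.3, BRD9 at 71.5, BICRAL at 19.0 and BICRA at 6.7. By exon length, every other neighbouring pair in this order was separated in all 3 libraries of each group. These gaps depend on the length used. BRD9 was divided by 2344 bases of coding transcripts, while all its annotated exons hold 9572 bases. Its level by the latter length was not computed. By median transcript length in GFP cells in DMSO, BCL7A averaged 4.12 and SS18L1 4.03, and BRD9 17.9 and BCL7C 17.3. The libraries of each of these pairs then overlapped. BCL7B lay above BCL7C in both dBRD9-A groups without overlap by exon length. The pair overlapped again in SMARCB1 cells in DMSO, where transcript length in place of exon length swapped them.

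**Figure D2:**
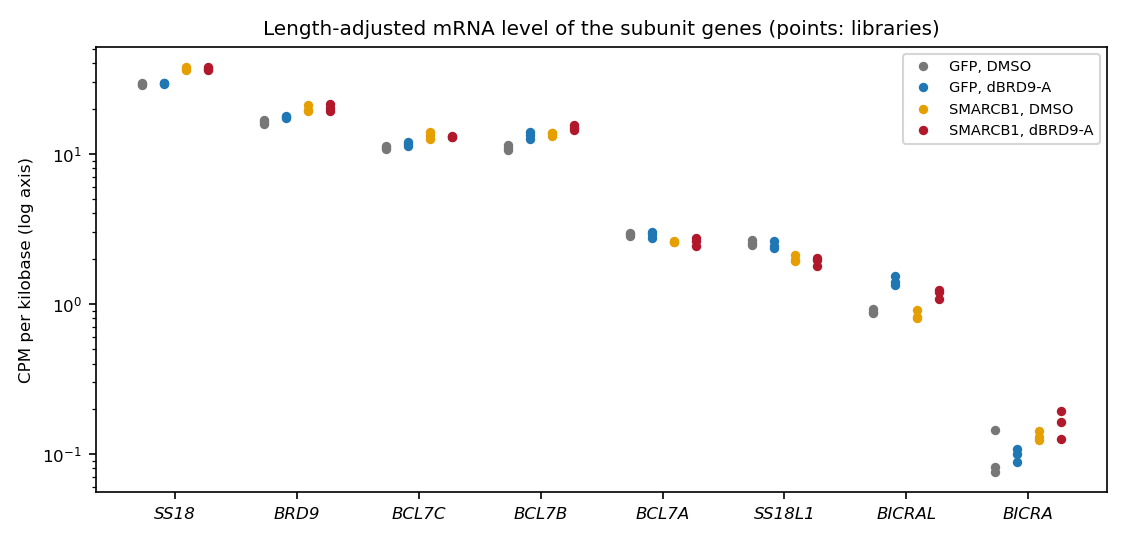
CPM per kilobase of exon on a log axis for the 8 genes in order of their level in GFP cells in DMSO; each point is 1 library, coloured by group. SS18 and BRD9 lead in each group, and BICRA stays below 0.2 CPM per kilobase in all 12 libraries.

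BRD9 itself (chromosome 5, ENSG00000028310.13) is a bromodomain subunit and the protein that dBRD9-A targets. Its mRNA stood at 39.6, 37.2 and 38.03 CPM in GFP cells in DMSO and at 41.3, 40.2 and 41.9 CPM with dBRD9-A in the same cells. In SMARCB1 cells it stood at 46.2, 49.2 and 45.3 CPM in DMSO and at 44.9, 47.1 and 50.4 CPM with dBRD9-A. All 6 SMARCB1 libraries lay above all 6 GFP libraries, and within GFP cells the 3 dBRD9-A libraries lay above the 3 in DMSO. The log2 fold change for SMARCB1 was 0.29 in DMSO (SE 0.04, adjusted p 1.64e-05), and 0.21 with dBRD9-A (SE 0.04, adjusted p 0.000621), where spike-in scaling gave -0.12 (adjusted p 0.101) around the shift of -0.32. With dBRD9-A, BRD9 mRNA had a log2 fold change of 0.10 in GFP cells (95% interval 0.01 to 0.20, adjusted p 0.146) and 0.02 in SMARCB1 cells (-0.07 to 0.11, adjusted p 0.921), neither past the threshold with TMM scaling. Spike-in scaling gave 0.46 in GFP cells (adjusted p 6.85e-07), which is 0.11 above the shift of all genes. The BRD9 protein was not measured. In bulk RNA, fewer cells that express a gene and less RNA per cell cannot be told apart. BRD9 shares 182 of its 9572 annotated exon bases with TRIP13 on the opposite strand and 222 with ZDHHC11 on its own strand, and its count was not whole in 5 libraries, so a part of its reads may have been divided with a neighbour.

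BICRA and BICRAL are alternative scaffold subunits that are found in the non-canonical complex only. BICRAL (chromosome 6, ENSG00000112624.8) had 5.91, 6.30 and 6.07 CPM in GFP cells in DMSO and 9.10, 9.59 and 10.5 CPM with dBRD9-A in the same cells. Its values in SMARCB1 cells were 5.50, 5.60 and 6.26 CPM in DMSO and 8.43, 7.40 and 8.12 CPM with dBRD9-A. The 6 libraries with dBRD9-A were thus above the 6 in DMSO, whichever protein had been induced. BICRAL rose 1.60-fold with dBRD9-A in GFP cells (log2 fold change 0.67, SE 0.08, 95% interval 0.51 to 0.84, adjusted p 9.67e-06). In SMARCB1 cells it rose 1.37-fold (log2 fold change 0.45, SE 0.08, 95% interval 0.28 to 0.62, adjusted p 0.00529). With spike-ins the same comparisons gave 1.04 (adjusted p 1.19e-09) and 0.31 (adjusted p 0.0728), the latter 0.45 above the shift of all genes. Between the cell states BICRAL had a log2 fold change of -0.06 in DMSO (95% interval -0.24 to 0.11, adjusted p 0.516), where the groups overlapped, but was lower in SMARCB1 cells under dBRD9-A (-0.29, SE 0.08, adjusted p 0.00368). The difference between its dBRD9-A effects in the cell states was -0.22 (95% interval -0.46 to 0.02, adjusted p 0.352). In SMARCB1 cells the mRNA of SMARCB1 itself was also lower with dBRD9-A, at 1318, 1327 and 1277 CPM against 1807, 1912 and 1908 CPM in DMSO. The part of that difference in the BICRAL result was not tested.

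A ratio of 2 counts from the same library does not depend on the scaling. BICRAL counts per BRD9 count were 0.149, 0.169 and 0.160 in GFP cells in DMSO and 0.220, 0.238 and 0.251 with dBRD9-A. In SMARCB1 cells the ratio went from 0.119, 0.114 and 0.138 in DMSO to 0.188, 0.157 and 0.161 with dBRD9-A. Every dBRD9-A library of a cell state lay above every DMSO library of the same state.

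BICRA (chromosome 19, ENSG00000063169.6) was near the lower end of what these libraries resolve, with 19 to 64 counts per library. It had 0.497, 0.461 and 0.882 CPM in GFP cells in DMSO and 0.538, 0.606 and 0.650 CPM with dBRD9-A. In SMARCB1 cells it had 0.785, 0.756 and 0.860 CPM in DMSO and 0.771, 1.18 and 1.0005 CPM with dBRD9-A. Replicate 3 of GFP cells in DMSO was the highest of the 6 GFP libraries and exceeded 4 of the 6 SMARCB1 libraries. The log2 fold change for SMARCB1 in DMSO was 0.37 (SE 0.25, 95% interval -0.16 to 0.90, adjusted p 0.215), and 0.74 without that replicate (adjusted p 0.0190). Under dBRD9-A it was 0.74 (SE 0.26, adjusted p 0.0188), but 0.66 without replicate 1 of GFP cells with dBRD9-A (adjusted p 0.0748), 0.57 without replicate 2 of SMARCB1 cells with dBRD9-A (adjusted p 0.102) and 0.41 with spike-ins (adjusted p 0.169). For dBRD9-A the log2 fold changes were -0.07 in GFP cells (95% interval -0.64 to 0.50, adjusted p 0.906) and 0.30 in SMARCB1 cells (-0.20 to 0.81, adjusted p 0.670). The latter interval holds the BICRAL value of the same cells, 0.45, and the former does not hold the 0.67 of BICRAL in GFP cells. A difference between the paralogues was not tested. Leaving out 1 library moved the BICRA value for dBRD9-A in GFP cells between -0.21 and 0.31. BICRA shares 87 of its 7507 exon bases with AC010331.1 on the opposite strand. Of the length-adjusted BICRA and BICRAL signal, BICRAL made up 89.9 ± 3.46% in GFP cells in DMSO, 93.6 ± 0.203% with dBRD9-A, 86.6 ± 0.334% in SMARCB1 cells in DMSO and 87.8 ± 2.94% with dBRD9-A (SD, n = 3).

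The stretches upstream of the BICRAL starts are shown because BICRAL had the largest change with dBRD9-A among the 8 genes. RefSeq on GRCh38.p14 holds 14 windows of 250 bases upstream of a start for the 8 genes, and 3 of them are for BICRAL. The longest run free of annotated exon bases is printed from each, capitals mark a motif, and the strand is the plus strand. The 3 stretches are chr6:42746737-42746957, chr6:42781928-42782026 and chr6:42820806-42821055, and the latter 2 lie inside the gene as drawn from its outermost start.
BICRAL start 1: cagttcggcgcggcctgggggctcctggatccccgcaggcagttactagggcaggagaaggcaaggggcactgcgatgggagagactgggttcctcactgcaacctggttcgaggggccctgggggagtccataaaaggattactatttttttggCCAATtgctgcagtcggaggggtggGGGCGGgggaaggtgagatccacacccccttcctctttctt
BICRAL start 2: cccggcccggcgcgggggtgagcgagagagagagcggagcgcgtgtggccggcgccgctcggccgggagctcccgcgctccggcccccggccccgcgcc
BICRAL start 3: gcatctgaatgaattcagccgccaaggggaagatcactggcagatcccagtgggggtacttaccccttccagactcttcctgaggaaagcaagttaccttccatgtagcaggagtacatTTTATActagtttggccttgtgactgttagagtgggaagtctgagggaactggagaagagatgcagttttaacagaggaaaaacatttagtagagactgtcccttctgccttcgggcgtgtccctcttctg
Motifs were searched on both strands: the GC box GGGCGG, bound by SP factors, the CCAAT box CCAAT, the TATA box TATAAA, the E-box CACGTG, the ETS motif CCGGAAG, the AP-1 motif TGANTCA and the cyclic AMP response element TGACGTCA. Of 35116 windows of this length, 42.6% hold the GC box, 32.0% the CCAAT box, 10.7% the TATA box, 6.34% the E-box, 8.52% the ETS motif, 6.57% the AP-1 motif and 1.65% the cyclic AMP response element. The stretch of start 1 holds 1 CCAAT box and 1 GC box, that of start 2 none of the motifs, and that of start 3 holds 1 TATA box on the minus strand. The full window of start 2, with 114 of its 250 bases in exons, holds 2 GC boxes outside the printed stretch. The windows of starts 1, 2 and 3 have a GC content of 63.2%, 73.2% and 48.4%, against a median of 58.0% over all windows. Gene counts do not show which start was used.

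**Figure D3:**
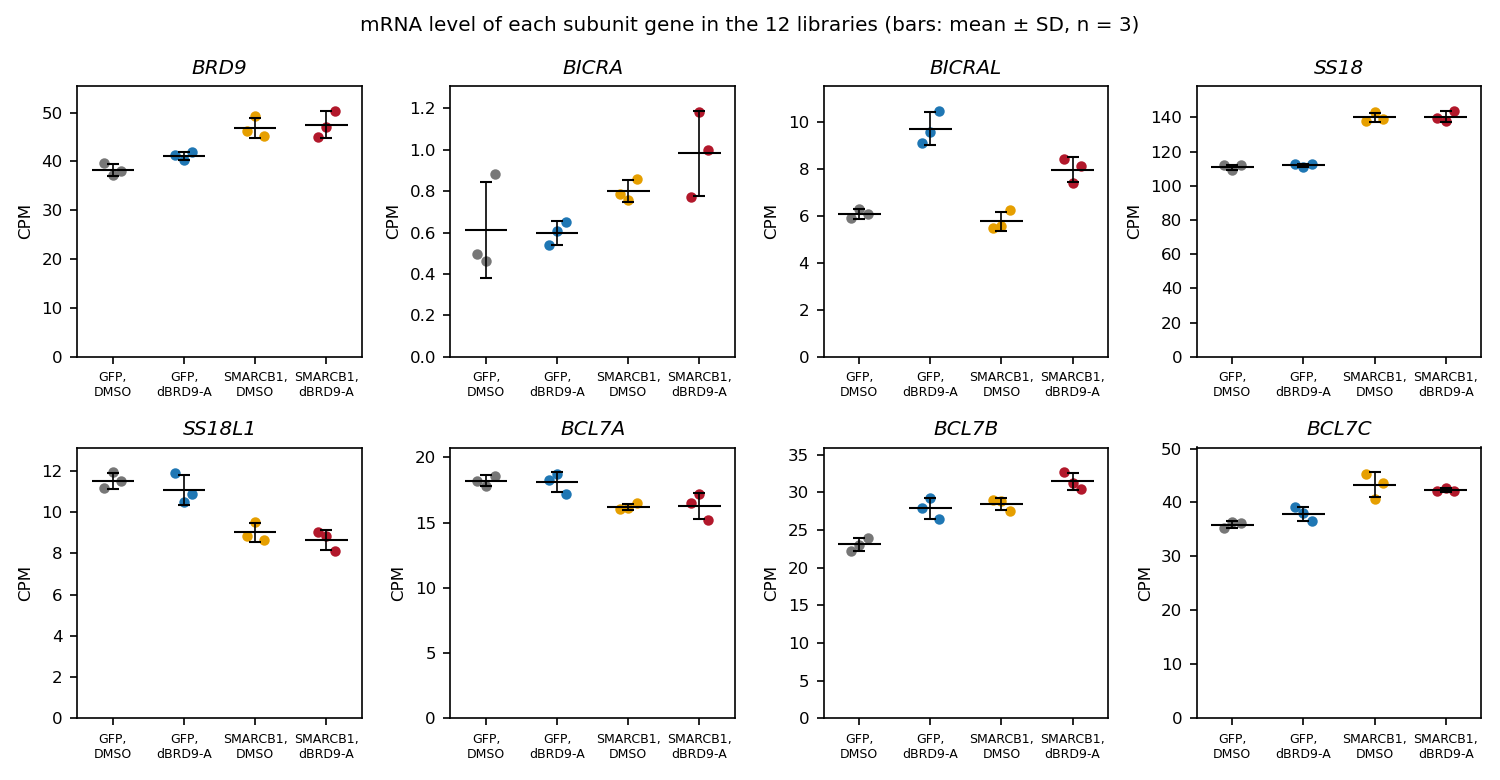
CPM (y axis, from 0) of each of the 8 genes in the 4 groups; points are libraries, bars the mean ± SD (n = 3). BICRAL is at 7.40 to 10.5 CPM in the 6 dBRD9-A libraries and 5.50 to 6.30 in the 6 DMSO libraries, and SS18 is at 138 CPM or more in all 6 SMARCB1 libraries.

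SS18, the subunit fused to SSX proteins in synovial sarcoma, and its paralogue SS18L1 differed in opposite directions between the cell states on TMM scaling. SS18 (chromosome 18, ENSG00000141380.9) had 112, 109 and 112 CPM in GFP cells in DMSO and 113, 111 and 113 CPM with dBRD9-A. In SMARCB1 cells it had 138, 143 and 139 CPM in DMSO and 139.7, 138 and 144 CPM with dBRD9-A. The 6 SMARCB1 libraries lay above the 6 GFP libraries, and the dBRD9-A and DMSO libraries of each state overlapped. The log2 fold change for SMARCB1 was 0.34 in DMSO (SE 0.03, adjusted p 3.89e-09) and 0.32 with dBRD9-A (SE 0.03, adjusted p 7.49e-09), where spike-in scaling gave -0.003 (adjusted p 0.966), 0.32 above the shift of all genes. For dBRD9-A the 95% intervals were narrow, -0.04 to 0.07 in GFP cells (adjusted p 0.789) and -0.05 to 0.06 in SMARCB1 cells (adjusted p 0.975). Spike-in scaling gave 0.37 for dBRD9-A in GFP cells (adjusted p 5.47e-06), where the shift of all genes was 0.36.

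SS18L1 (chromosome 20, ENSG00000184402.10), which in neurons takes the place of SS18, had 11.2, 11.95 and 11.5 CPM in GFP cells in DMSO and 11.9, 10.5 and 10.9 CPM with dBRD9-A. In SMARCB1 cells it had 8.87, 9.53 and 8.65 CPM in DMSO and 9.05, 8.83 and 8.10 CPM with dBRD9-A. All 6 SMARCB1 libraries were below all 6 GFP libraries. SS18L1 was lower with SMARCB1 both in DMSO (log2 fold change -0.36, SE 0.07, adjusted p 0.000130; with spike-ins -0.19, adjusted p 0.0773) and with dBRD9-A (-0.36, SE 0.07, adjusted p 0.000168; with spike-ins -0.69, adjusted p 3.68e-08). Its values for dBRD9-A were -0.05 in GFP cells (95% interval -0.19 to 0.09, adjusted p 0.681), which spike-in scaling turned to 0.31, and -0.05 in SMARCB1 cells (-0.20 to 0.09, adjusted p 0.822). There were 10.02, 9.15 and 9.72 SS18 counts per SS18L1 count in GFP cells in DMSO and 15.5, 15.03 and 16.1 in SMARCB1 cells in DMSO. This ratio, free of the scaling, was 9.45 to 10.5 in GFP cells and 15.4 to 17.8 in SMARCB1 cells with dBRD9-A. Per kilobase, SS18L1 held 8.08 ± 0.345% of the signal of the pair in GFP cells and 5.16 ± 0.167% in SMARCB1 cells, both in DMSO (SD, n = 3).

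The upstream stretches of the pair are shown side by side because the paralogues moved apart. That of SS18 is chr18:26091220-26091469 on the minus strand, and that of SS18L1 is chr20:62143519-62143768 on the plus strand, both from RefSeq on GRCh38.p14, with capitals marking the same motifs.
SS18: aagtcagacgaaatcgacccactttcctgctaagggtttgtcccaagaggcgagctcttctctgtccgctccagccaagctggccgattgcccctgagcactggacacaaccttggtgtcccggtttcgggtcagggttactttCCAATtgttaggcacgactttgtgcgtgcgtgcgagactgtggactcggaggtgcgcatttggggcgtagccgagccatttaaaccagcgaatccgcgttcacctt
SS18L1: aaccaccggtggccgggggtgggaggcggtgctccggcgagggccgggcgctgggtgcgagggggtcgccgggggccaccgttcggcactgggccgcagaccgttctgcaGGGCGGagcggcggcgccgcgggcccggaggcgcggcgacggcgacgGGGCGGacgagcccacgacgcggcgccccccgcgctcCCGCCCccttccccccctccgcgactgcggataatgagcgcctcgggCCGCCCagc
The SS18 stretch holds 1 CCAAT box and has a GC content of 56.4%. The SS18L1 stretch holds 4 GC boxes and has a GC content of 81.6%, more than 98.0% of all windows. A second start of SS18 has the window chr18:26090614-26090863, which lies wholly in SS18 exons and is not printed, with 1 GC box and a GC content of 67.6%.

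**Figure D4:**
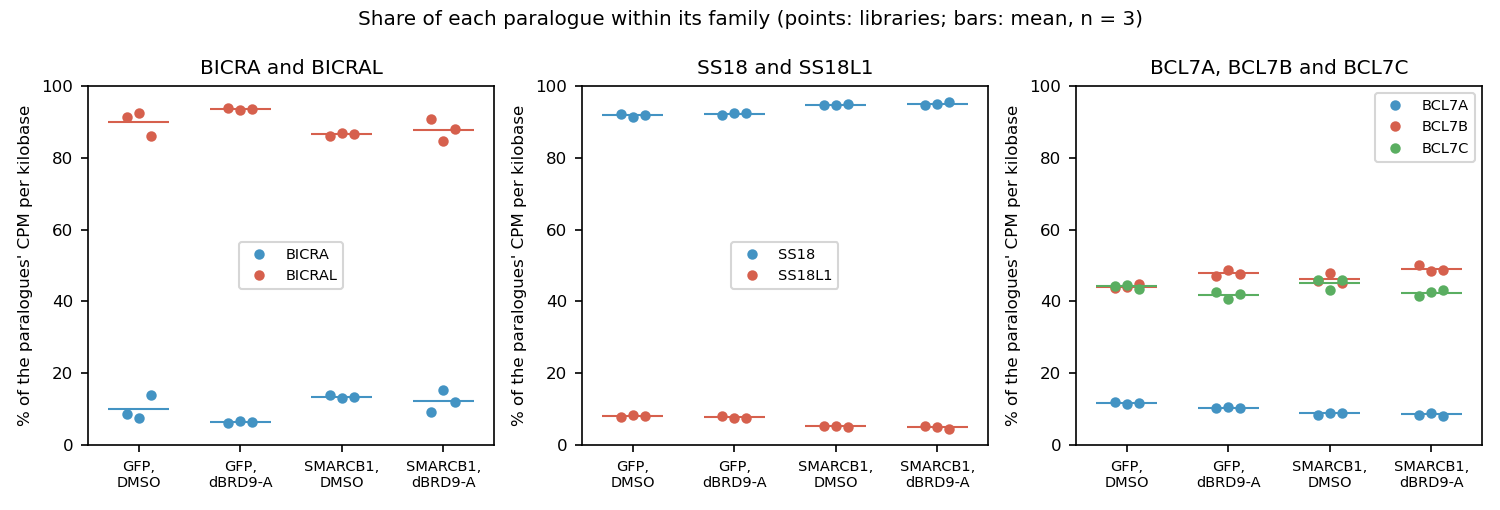
Share of each paralogue in the length-adjusted signal of its family (y axis, percent of the summed CPM per kilobase) in the 4 groups; points are libraries and lines the mean (n = 3). SS18L1 goes from 8.08% in GFP cells in DMSO to 5.16% in SMARCB1 cells in DMSO, and BCL7A from 11.7% to 8.83%.

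The BCL7 proteins are small accessory subunits of SWI/SNF complexes, and their 3 genes did not move as 1 group. BCL7B (chromosome 7, ENSG00000106635.3) had 22.2, 22.96 and 24.01 CPM in GFP cells in DMSO and 27.9, 29.3 and 26.5 CPM with dBRD9-A. In SMARCB1 cells it had 28.98, 28.9 and 27.6 CPM in DMSO and 32.7, 31.2 and 30.5 CPM with dBRD9-A. On TMM scaling GFP cells in DMSO were the lowest group without overlap, and SMARCB1 cells with dBRD9-A the highest. Scaled to the spike-ins, the GFP means were 21.2 CPM in DMSO and 32.9 with dBRD9-A. The SMARCB1 means were 29.5 and 29.7 CPM, so GFP cells with dBRD9-A had the highest mean. BCL7B rose with dBRD9-A in GFP cells (log2 fold change 0.28, SE 0.05, 95% interval 0.18 to 0.37, adjusted p 0.000557). In SMARCB1 cells its value was 0.14 (95% interval 0.05 to 0.24, adjusted p 0.146). All 3 libraries were above DMSO on TMM scaling, but the adjusted p was over the threshold. The difference between the effects was -0.13 (-0.27 to 0.01, adjusted p 0.351). Spike-in scaling gave 0.63 for dBRD9-A in GFP cells (adjusted p 1.18e-08) and 0.01 in SMARCB1 cells (adjusted p 0.940). SMARCB1 raised BCL7B by a log2 fold change of 0.30 in DMSO (SE 0.05, adjusted p 1.86e-05) and 0.17 with dBRD9-A (SE 0.05, adjusted p 0.00371). Spike-in scaling turned the latter to -0.15 (adjusted p 0.0610).

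BCL7C (chromosome 16, ENSG00000099385.7) had 35.2, 36.4 and 36.2 CPM in GFP cells in DMSO and 39.1, 38.1 and 36.6 CPM with dBRD9-A. In SMARCB1 cells it had 45.3, 40.7 and 43.7 CPM in DMSO and 42.2, 42.7 and 42.1 CPM with dBRD9-A. The SMARCB1 libraries were all above the GFP libraries. SMARCB1 raised it by a log2 fold change of 0.27 in DMSO (SE 0.04, adjusted p 1.33e-05) and 0.16 with dBRD9-A (SE 0.04, adjusted p 0.00273). Spike-in scaling turned the latter to -0.17 (adjusted p 0.0376). Its dBRD9-A values were 0.08 in GFP cells (95% interval -0.01 to 0.17, adjusted p 0.224), or 0.44 with spike-ins (adjusted p 4.01e-06), and -0.03 in SMARCB1 cells (-0.12 to 0.05, adjusted p 0.826). BCL7C shares 499 of its 4398 exon bases with the antisense gene MIR762HG.

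BCL7A (chromosome 12, ENSG00000110987.4) had 18.2, 17.8 and 18.6 CPM in GFP cells in DMSO and 18.3, 18.7 and 17.2 CPM with dBRD9-A. In SMARCB1 cells it had 16.05, 16.1 and 16.5 CPM in DMSO and 16.5, 17.2 and 15.2 CPM with dBRD9-A. On TMM scaling SMARCB1 lowered it in DMSO (log2 fold change -0.16, SE 0.05, adjusted p 0.00929), which spike-in scaling turned to 0.01 (adjusted p 0.951). With dBRD9-A the value was -0.15 (SE 0.05, adjusted p 0.0207), a call lost without replicate 1 (-0.14, adjusted p 0.0559) or 2 (-0.13, adjusted p 0.0786) of GFP cells with dBRD9-A, or replicate 3 of SMARCB1 cells with dBRD9-A (-0.11, adjusted p 0.0880). For dBRD9-A it was -0.01 in GFP cells (95% interval -0.12 to 0.10, adjusted p 0.949; with spike-ins 0.35, adjusted p 0.000163) and 0.01 in SMARCB1 cells (-0.10 to 0.12, adjusted p 0.972). BCL7A shares 642 of its 6565 exon bases with AC069503.1 on the opposite strand. Per kilobase, BCL7A held 11.7 ± 0.285% of the BCL7 signal in GFP cells and 8.83 ± 0.299% in SMARCB1 cells, both in DMSO, while BCL7B went from 44.1 ± 0.650% to 47.8 ± 0.864% with dBRD9-A in GFP cells (SD, n = 3).

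BCL7B, with BICRAL the other gene that rose with dBRD9-A in GFP cells on TMM scaling, has 2 annotated starts. The exon-free stretch before the inner one, chr7:73557252-73557486 on the minus strand, lies inside the gene and is shown for comparison with the BICRAL stretches.
BCL7B: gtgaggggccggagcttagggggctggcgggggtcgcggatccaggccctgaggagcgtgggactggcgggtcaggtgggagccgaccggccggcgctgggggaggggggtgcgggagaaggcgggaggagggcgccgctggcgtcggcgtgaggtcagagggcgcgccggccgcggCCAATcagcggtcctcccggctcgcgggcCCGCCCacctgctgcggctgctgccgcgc
Like the stretch of BICRAL start 1, it holds 1 CCAAT box and 1 GC box, motifs that 32.0% and 42.6% of all windows hold. The GC box is on the minus strand of the printed sequence.

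The groups did not overlap for 6 of the 8 genes with SMARCB1 in DMSO, where this held for 68.7% of all genes tested, and for 8 of 8 with SMARCB1 in dBRD9-A, against 66.2%. With dBRD9-A in GFP cells this held for 4 of 8 against 34.0%. Those 4, BRD9, BICRAL, BCL7B and BCL7C, were all higher with dBRD9-A. In SMARCB1 cells BICRAL and BCL7B were the 2 of 8, against 16.9%. No member's dBRD9-A effect differed between the cell states by edgeR's test of the interaction, where 3.80% of all genes did, 2.15% with a higher and 1.65% with a lower value in SMARCB1 cells. At an unadjusted p under 0.05 the count of members was also 0. DESeq2 gave 0, with no adjusted p for BICRA, against 623 of all 15750 genes. Spike-in scaling gave 7 of 8, all lower, around a median of -0.49 for all genes. Under that scaling 11270 of all 15750 genes were called for the interaction, 11204 of them lower. For BICRA the interval of that difference ran from -0.39 to 1.13 on TMM scaling, which holds differences as large as the BICRAL effects of 0.67 and 0.45.

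**Figure D5:**
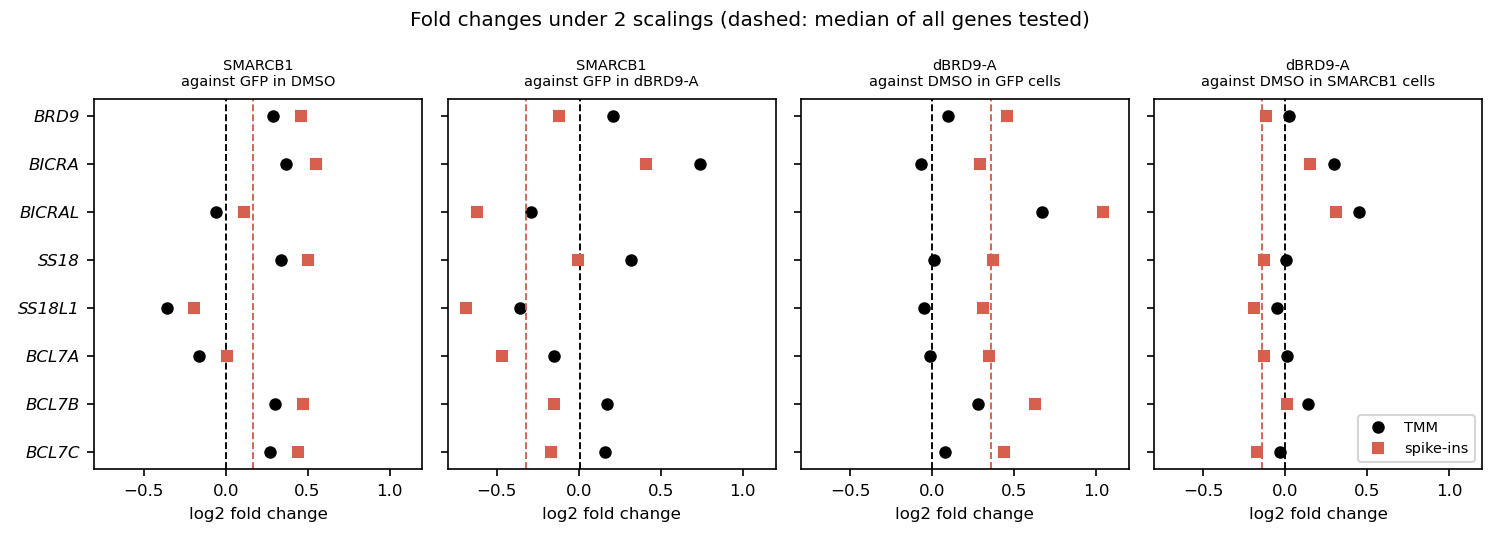
Log2 fold changes (x axis) of the 8 genes (y axis) with TMM scaling (circles) and spike-in scaling (squares); dashed lines are the medians of all 15750 genes under each scaling. In each panel the squares are displaced with the dashed line, to 0.36 for dBRD9-A in GFP cells and -0.32 for SMARCB1 in dBRD9-A, where BRD9, SS18, BCL7B and BCL7C change sign.

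The remaining subunits were read from lists of their own, and their changes are given as log2 fold changes. Of 7 subunits that the BRD9 complex shares with other SWI/SNF complexes, 6 were tested and ACTL6B was not. SMARCB1 in DMSO changed 6 of the 6, with the ATPase gene SMARCA2, ACTL6A, ACTB and SMARCD1 higher and the ATPase gene SMARCA4 and the core gene SMARCC1 lower, where 65.0% of all genes changed. The median over the 6 was 0.22. Spike-in scaling left 4 calls, all higher, where 6831 of all 15750 genes were higher and 2581 lower. SMARCA4 fell by 0.26 (SE 0.05, adjusted p 0.000257) and SMARCC1 by 0.29 (SE 0.04, adjusted p 1.57e-06), while SMARCA2 had 0 or 1 counts in each GFP library and 7 to 14 in each SMARCB1 library. SMARCA2 thus passed the filter on low counts only through the SMARCB1 groups. With SMARCB1 in dBRD9-A 6 of the 6 changed, 4 higher and 2 lower, against 63.3% of all genes. Spike-in scaling gave 2 higher and 2 lower, where 2129 of all 15750 genes were higher and 9046 lower. Addition of dBRD9-A in GFP cells lowered SMARCC1 by 0.12 (adjusted p 0.0248) and ACTB by 0.07 (adjusted p 0.0446) on TMM scaling, 2 of the 6 against 15.9% of all genes. With spike-ins 5 were higher and 0 lower, where 11083 of all 15750 genes were higher and 227 lower. In SMARCB1 cells 0 of the 6 changed by edgeR and by DESeq2, against 1.93% of all genes by edgeR.

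Among 14 subunits of canonical BAF and PBAF that the BRD9 complex lacks, 13 were tested and DPF3 was not. SMARCB1 in DMSO changed 7 of the 13, against 65.0% of all genes, with a median of 0.08. The 4 higher were the induced SMARCB1, ARID1A, PBRM1 and BRD7, and the 3 lower were SMARCD3, PHF10 and SMARCE1. The call of SMARCB1 was fixed by its induction and says nothing about the other subunits. Spike-in scaling gave 10 higher and 2 lower, where 6831 of all 15750 genes were higher and 2581 lower. On the log2 scale PHF10, a PBAF subunit, fell by 0.64 (SE 0.04, adjusted p 2.72e-11) and SMARCD3, a BAF60 subunit, by 0.75 (SE 0.04, adjusted p 5.42e-11). With SMARCB1 in dBRD9-A the count was again 7 of 13, 4 higher, the induced SMARCB1 among them, and 3 lower, against 63.3% of all genes. Spike-in scaling gave 1 higher, SMARCB1 itself, and 11 lower, where 2129 of all 15750 genes were higher and 9046 lower. Addition of dBRD9-A in GFP cells raised SMARCD3 by 0.19 (adjusted p 0.00456) and lowered PHF10 by 0.15 (adjusted p 0.00739), 2 of the 13 against 15.9% of all genes. Spike-in scaling gave 13 of 13 higher there, as it did for 11083 of all 15750 genes. In SMARCB1 cells, against 1.93% of all genes, the 1 call on TMM scaling was SMARCB1 itself, lower (log2 fold change -0.52, SE 0.03, adjusted p 4.95e-08). With spike-ins ARID1A and SMARCB1 were called, both lower, where 834 of all 15750 genes were lower and 39 higher. BRD9 counts per count of BRD7, a bromodomain gene of PBAF, were 0.477 to 0.508 in GFP cells and 0.531 to 0.563 in SMARCB1 cells, both in DMSO. With dBRD9-A they were 0.539 to 0.579 and 0.534 to 0.612, and the cell states overlapped.

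Genes whose log2 CPM followed BICRAL and BRD9 most closely over the 12 libraries were taken by the highest Pearson correlation among 12585 genes tested with a mean of at least 50 counts. For BICRAL they were AP1S1 (r = 0.964), a subunit of the AP-1 clathrin adaptor, the zinc finger gene ZNF280D (0.955) and the pseudogene TMEM167AP2 (0.950), whose reads may be shared with its parent gene. AP1S1 averaged 44.1 CPM in GFP cells in DMSO, 69.02 with dBRD9-A, 44.4 in SMARCB1 cells in DMSO and 58.3 with dBRD9-A. For BRD9 they were the splicing kinase gene CLK1 (0.967), the Fanconi anaemia gene FANCB (0.966) and RGPD5 (0.965), which has near-identical copies. With the group means removed, other genes led: DNAJC3 (0.962), CCDC15 (0.946) and ANGEL2 (0.943) for BICRAL, and ZEB1 (0.893), CEP135 (0.883) and HTR7P1 (0.881) for BRD9. The points share libraries and depth, the libraries fall into GFP and SMARCB1 sets, and the highest values among 12585 genes are given as a description.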

How the data were processed

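Per the labels' protocols, RNA of G401 cells came from a Qiagen RNeasy Plus extraction and went into TruSeq Stranded mRNA libraries. The 3 deposited tables hold expected counts per gene for 12 libraries. STAR, RSEM 1.3.1, DESeq2 and the builds GRCh37 and hg19 are named, per the submitters' processing notes, with no roles; the annotation and the strand setting are not given in the sources used here, so reads of a gene and of an overlapping antisense gene may not have been separated. The 6 columns that occur in more than 1 table were identical. Symbols matched 51996 of 57820 identifiers.

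Expected counts (97.4% whole) were rounded and tested in R 4.3.3 with edgeR 4.0.16: filterByExpr (minimum count 10), TMM, a quasi-likelihood fit with 1 coefficient per group over 12 libraries, and Benjamini-Hochberg adjustment over 15750 genes at 0.05. Standard errors came from the quasi-F statistic. The script was tested on simulated data. Alternatives were DESeq2 1.42.0, scaling to 40 spike-ins, library totals, no filter, the compared groups alone, a replicate block, leaving out each library, and a fold limit. Exon lengths and overlaps came from GENCODE 29 on GRCh38, which may differ from the authors' annotation. Upstream windows came from RefSeq, and the longest run free of GENCODE exons was printed.

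Named were the 8 members, lists of shared and of canonical BAF and PBAF subunits, marker genes, and for BRD9 and BICRAL the 3 most alike genes by each measure. The members and lists were chosen with earlier results of these data known.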

Additional observations from a re-analysis of the deposited data

How the results depend on the processing

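Each member's 5 fold changes kept their side of the threshold with library totals, no filter and the replicate block (40 of 40 values each), with the compared groups alone (32 of 32) and with DESeq2 (39 of 39, as BICRA had no adjusted p for the interaction). Some values that neither analysis called changed sign: for dBRD9-A in SMARCB1 cells SS18 with DESeq2 (-0.002) and library totals (-0.01), with library totals also BCL7A for dBRD9-A in GFP cells (0.01) and the interaction (-0.01), and without the filter SS18 (0.001) and SS18L1 (0.01) for the interaction. Leaving out 1 library changed the side of the threshold for 6 of 480 values, all BICRA or BCL7A. It gave 6 to 7 members called for SMARCB1 in DMSO, 6 to 8 for SMARCB1 in dBRD9-A, 2 for dBRD9-A in GFP cells, 1 in SMARCB1 cells and 0 for the interaction. It also turned the sign of 23 values that neither analysis called, which belong to 10 fold changes. These ranged, for dBRD9-A in GFP cells, from -0.21 to 0.31 for BICRA and -0.03 to 0.03 for BCL7A, and in SMARCB1 cells from -0.03 to 0.05 for BRD9, -0.02 to 0.02 for SS18, -0.04 to 0.05 for BCL7A and -0.07 to 0.001 for BCL7C. For the interaction they ranged from -0.01 to 0.52 for BICRA, -0.04 to 0.01 for SS18, -0.04 to 0.05 for SS18L1 and -0.03 to 0.05 for BCL7A. Spike-in scaling kept direction and side for 14 of 40, with 3 weaker, 9 stronger and 14 of opposite sign, 6 of the latter not called under either scaling, and displaced the members with the median of all genes. It gave 4 members for SMARCB1 in DMSO, 4 for SMARCB1 in dBRD9-A, 7 for dBRD9-A in GFP cells, 0 in SMARCB1 cells and 7 for the interaction. Of all 15750 genes, spike-in scaling called 9412, 11175, 11310, 873 and 11270 in the same order of comparisons. Signs turned for BICRAL (0.11) and BCL7A (0.01) with SMARCB1 in DMSO, for BRD9 (-0.12), SS18 (-0.003), BCL7B (-0.15) and BCL7C (-0.17) with SMARCB1 in dBRD9-A, for BICRA (0.29), SS18L1 (0.31) and BCL7A (0.35) with dBRD9-A in GFP cells, for BRD9 (-0.12), SS18 (-0.13) and BCL7A (-0.13) with dBRD9-A in SMARCB1 cells, and for BICRA (-0.14) and BCL7A (-0.48) in the interaction. The data do not say which scaling is nearer to RNA per cell, and the cause was not tested. A fold limit of 0.5 (log2) left 0 members for SMARCB1 in DMSO, 1 in dBRD9-A (BICRA), 1 for dBRD9-A in GFP cells (BICRAL), 0 in SMARCB1 cells and 0 for the interaction, since it is a stricter rule. Of all genes it left 4411, 4274, 454, 61 and 136 of 10245, 9975, 2504, 304 and 598. Other counts of all genes that moved over 1.5 times were, with spike-ins, 11310 for dBRD9-A in GFP cells, 873 in SMARCB1 cells and 11270 for the interaction, and in SMARCB1 cells 652 without the filter and 159 from the compared groups alone. Deviations from group means correlated at -0.131 to 0.0877 over 18 same-numbered pairs and at -0.105 to 0.149 over 36 other pairs. By this measure 1 of 12 libraries was most like one of its own number. Whether same-numbered libraries were handled together was not tested. Depth limits BICRA, at 19 to 64 counts per library.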
